A study of Bos taurus with 15 samples.

Results

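The genes of the striated muscle sarcomere were followed in RNA of subcutaneous adipose tissue taken from the dewlap of dairy cows. The list held 52 gene symbols, chosen by name for their part in skeletal or cardiac muscle and put together with the results of the 6 comparisons already known, so the values below describe these genes and are no independent evidence of a direction. A symbol counted as a member when all 6 deposited tables had a row of that name, which gave 44 members among 13896 genes. The 8 symbols not analysed here were MYBPC2, NEB, TTN, XIRP2, CACNA1S, SRL, TRDN and UNC45B. No sequence is printed, because the tables at hand hold none.

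A sarcomere is the contractile unit of striated muscle. Thick filaments of myosin pull on thin filaments of actin, which carry troponin and tropomyosin and are anchored in the Z-disc. Contraction starts when calcium leaves the sarcoplasmic reticulum through the ryanodine receptor and ends when calcium pumps return it. White fat has no sarcomeres, but muscle lies close to it, and smooth muscle of vessels shares some of these genes, among them desmin.

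The 15 libraries of primiparous Prim Holstein cows form 5 groups of 3. The group at -4 wkpp (weeks peripartum) was sampled one month before calving, before the diets began. Libraries of 1 and 16 wkpp come from cows that received a low energy (LE) or a high energy (HE) diet from then on. The study's methods divide the cows by how negative their energy balance was at 1 wkpp, severely (SNEB) or moderately so (MNEB), and take the most extreme ones for sequencing. Here the libraries labelled LE are called SNEB and those labelled HE are called MNEB, since the numbers in the labels are those of the libraries listed under these names in the study's supplement. The methods describe biopsies of each animal at all 3 times, so libraries of different times, -4 wkpp included, may come from the same cows; the labels do not tie libraries to a cow. All groups share the breed, the parity and the site of the biopsy, and the -4 wkpp libraries served both NEB groups. Diet and energy balance cannot be told apart, because every LE library is SNEB and every HE library is MNEB. A biopsy is bulk tissue, in which fewer cells of a type and less RNA per cell cannot be told apart.

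The deposited tables hold 1 mean count per gene over the 6 libraries of a comparison, written to 15 digits. These digits were enough to recover the whole number of reads in every library for 13745 of 13753 entries with exonic reads and for 13433 of 13445 in the whole gene analysis, members included. A level below is a recovered read number divided by the size factor of its library. Within a group the libraries are given in order of falling size factor, and which labelled cow each of them is was not determined. Levels were not scaled to gene length, so they compare libraries for 1 gene and not genes with each other. Exonic reads on genes were between 8339235 and 14928006 per library at -4 wkpp and in SNEB, and between 2034144 and 7565988 in MNEB. The synthetic spike-in RNAs took 0.177 to 1.51% of the exonic reads at -4 wkpp and in SNEB and 2.79 to 19.1% in MNEB. In the study's list of reads, the MNEB libraries had total reads similar to the others' but a lower share of aligned reads. The number of exonic reads, the share of aligned reads and the spike-in share therefore move with every SNEB and MNEB difference below, and their part in it was not tested.

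Many members that define muscle fibres had few exonic reads. For 18 of them (MYH1, MYH2, MYH7, MYL1, MYL2, MYL3, MYLPF, ACTA1, TNNT1, TNNI1, TNNI2, TNNC1, TNNC2, ACTN3, CASQ1, PVALB, CKM and MB, picked after the levels were seen and leaving out the more abundant TNNT3, TCAP, ATP2A1 and RYR1), the summed exonic level was between 46.0 and 156 normalised reads in 13 libraries and 320.2 and 307 in the second and the third library of MNEB 1 wkpp. Between 2 and 11 of the 18 had no exonic read in a library, and the highest level of any of them was 94.2, for skeletal actin ACTA1 in the second library of MNEB 1 wkpp. The sum describes these 18 members only, since the choice kept out those with higher levels. The 11 adipocyte genes summed to between 17840.1 and 126816 in the 15 libraries, and these sums are not set against those of muscle genes.

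**Figure D1:**
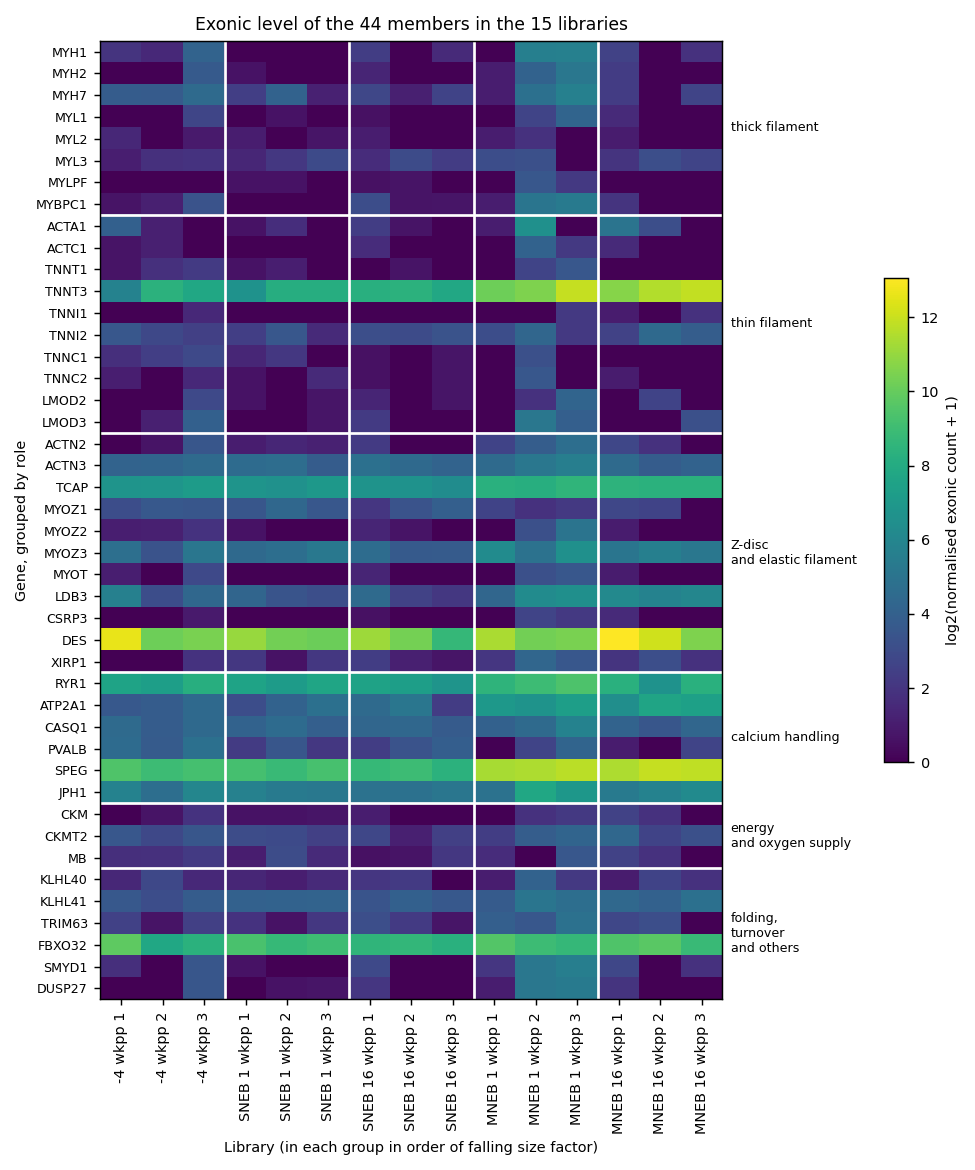
Exonic level of the 44 members (rows, grouped by role) in the 15 libraries (columns, grouped by group and in order of falling size factor), coloured by log2(normalised exonic count + 1). TNNT3, TCAP, ATP2A1 and SPEG are brighter in all 6 MNEB libraries than in the 9 others, while MYH1, MYBPC1, SMYD1 and DUSP27 are brightest in the second and the third library of MNEB 1 wkpp.

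A gene was called when the deposited adjusted p-value was below 0.01 in the exon and in the whole gene analysis, the rule of the study. The same sign in both was required in addition. The log2 fold changes are those of the deposited exon analysis, shrunken towards 0, and are positive when the first group was higher. All 10 members that were called in any comparison were lower at -4 wkpp or in SNEB than in MNEB, and none was called within an NEB group. They held 2 genes of the thick filament, 1 of the thin filament, 2 of the Z-disc, 3 of calcium handling and 2 of a group of folding, turnover and other muscle proteins.

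At 1 wkpp, 10 of the 28 members with an adjusted p-value in both analyses were called between SNEB and MNEB, and all 10 were lower in SNEB (MYH2, MYBPC1, TNNT3, TCAP, LDB3, RYR1, ATP2A1, SPEG, SMYD1 and DUSP27). Over all genes, 7.43% were called in this comparison and 4.54% were called and lower in SNEB. The median log2 fold change of the members was -0.96 on exons and -1.77 on whole genes, beside -0.09 and -0.09 over all genes. On the log2 ratio of group means, which is not shrunken, the exonic median was -1.76, and it was 0.00 without the second and the third library of MNEB 1 wkpp. Of the 44 members, 43 (97.7%) had a negative value on exons, beside 54.9% of all genes. Of the 16 members called in the whole gene analysis alone, where 15.2% of all genes were called, 10 are those above. These calls depend on the test: limma on log2 levels of the recovered libraries called 0 of 42 members in both analyses (14, or 33.3%, had an unadjusted p below 0.05 on exons, beside 31.3% of all genes) and also 0 of all 12868 genes, so this count says nothing particular about the members. Without the first library of MNEB 1 wkpp limma called 13 members, with 8.15% of all genes called. With all libraries, SPEG came nearest with adjusted p = 0.0020 on exons and 0.021 on whole genes.

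At 16 wkpp, 5 of the 14 members with an adjusted p-value were called, all lower in SNEB (TNNT3, TCAP, LDB3, ATP2A1 and SPEG), and each of the 5 was also called at 1 wkpp. Over all genes, 12.7% were called and 7.96% were called and lower in SNEB. The median of the members was -0.21 on exons beside 0.00 over all genes, and -1.51 over the 6 members whose mean exonic count reached 100 (TNNT3, TCAP, DES, RYR1, SPEG and FBXO32). Over the members on group means it was -0.50, which became 0.01 without the first library of MNEB 16 wkpp and -0.82 without the first of SNEB 16 wkpp. On the recovered levels, limma called 3 of these members (TNNT3, TCAP and SPEG), with 3.65% of all genes called. Between -4 wkpp and MNEB 1 wkpp, 3 of 17 members were called and lower at -4 wkpp (TCAP, ATP2A1 and SPEG), with 11.7% of all genes called and 6.54% called and lower at -4 wkpp. Among the members limma called SPEG alone here, with 1.91% of all genes called. The exonic median of the members was -0.72 beside -0.10 over all genes, and on group means it went from -1.28 to 0.56 without the second and the third library of MNEB 1 wkpp.

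No member was called in the other comparisons by the deposited adjusted p-values. Between -4 wkpp and SNEB 1 wkpp, 0 of 15 members were called, with 2.33% of all genes called. On exons 2 members (4.76%) had an unadjusted p below 0.05 there, beside 12.5% of all genes. From 1 to 16 wkpp, 0 of 7 members were called in MNEB (0.529% of all genes) and 0 of 7 in SNEB (0.114% of all genes). An unadjusted p below 0.05 on exons was found for 7 members (15.9%) in MNEB, beside 10.9% of all genes, and for 1 (2.33%) in SNEB, beside 6.33%. In these 3 comparisons limma called 0 members as well, with 0.190% of all genes called between -4 wkpp and SNEB 1 wkpp and 0 within SNEB and within MNEB. In limma 2, 1 and 8 members (5.56, 3.45 and 18.6%) had an unadjusted p below 0.05 on exons, beside 14.3, 7.30 and 12.3% of all genes.

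Among the genes of the thin filament, TNNT3, the fast skeletal form of troponin T, was the only one called. Its exonic level was 54.9, 340.3 and 222 at -4 wkpp, 102, 284 and 282 in SNEB 1 wkpp, 307, 339.7 and 226 in SNEB 16 wkpp, 1181, 1493 and 3825 in MNEB 1 wkpp, and 1654, 3075 and 3763 in MNEB 16 wkpp. All 6 MNEB libraries lay above the 9 others. The log2 fold change of SNEB over MNEB was -2.85 (standard error 0.44, adjusted p = 9.6e-09) at 1 wkpp and -3.10 (standard error 0.30, adjusted p = 5.2e-22) at 16 wkpp by the Wald test of the deposited tables. On whole genes the adjusted p of that test was 0.0055 at 1 wkpp and 3.8e-07 at 16 wkpp. For -4 wkpp over MNEB 1 wkpp it was 4.8e-04 on exons and 0.040 on whole genes, so TNNT3 was not called there. The fast troponin I, TNNI2, was between 1.97 and 20.8 in the 15 libraries and the fast troponin C, TNNC2, between 0 and 10.8 (both named here after their values were seen). An adjusted p-value in both analyses was given for TNNI2 at 1 wkpp between SNEB and MNEB only, where it was 0.66 on exons, and for TNNC2 in no comparison.

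TCAP, or telethonin, caps titin at the Z-disc. Its exonic level was 106, 112 and 141 at -4 wkpp, 107, 97.0 and 126 in SNEB 1 wkpp, 105, 101 and 81.6 in SNEB 16 wkpp, 318, 291 and 378 in MNEB 1 wkpp, and 354, 319 and 329 in MNEB 16 wkpp. The MNEB libraries were again above the 9 others, with little spread inside each group. At 1 wkpp the MNEB mean of TCAP was 329 ± 44.8 (SD, n = 3), while the SNEB mean was 110.1 ± 14.7 (SD, n = 3). At 16 wkpp the corresponding means were 334 ± 18.1 and 96.0 ± 12.7 (SD, n = 3 each). The log2 fold change was -1.50 (standard error 0.27, adjusted p = 2.2e-06) at 1 wkpp, -1.75 (standard error 0.22, adjusted p = 2.1e-13) at 16 wkpp and -1.41 (standard error 0.28, adjusted p = 5.9e-06) for -4 wkpp over MNEB 1 wkpp.

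SPEG is a kinase of the membranes where the sarcoplasmic reticulum meets the T-tubules, and its locus also makes a short form in arterial smooth muscle. The exonic level was 700.3, 494 and 596 at -4 wkpp, 603, 463 and 608 in SNEB 1 wkpp, 434, 489 and 339 in SNEB 16 wkpp, 2622, 2809 and 3365 in MNEB 1 wkpp, and 2855, 3888 and 3612 in MNEB 16 wkpp. The lowest MNEB library thus lay well above the highest of the 9 others. SPEG had the lowest adjusted p-values of all members, 1.3e-20 at 1 wkpp (log2 fold change -2.31, standard error 0.23), 8.1e-38 at 16 wkpp (-2.96, standard error 0.22) and 1.3e-20 for -4 wkpp over MNEB 1 wkpp (-2.25, standard error 0.23).

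ATP2A1 encodes SERCA1, the calcium pump of fast fibres. Its exonic level was 11.1, 12.9 and 21.4 at -4 wkpp, 7.63, 16.3 and 26.9 in SNEB 1 wkpp, 21.6, 34.1 and 3.95 in SNEB 16 wkpp, 126, 105 and 161 in MNEB 1 wkpp, and 85.6, 200.0 and 172 in MNEB 16 wkpp. The MNEB libraries did not overlap with the others. The log2 fold change was -2.53 (standard error 0.45, adjusted p = 1.1e-06) at 1 wkpp, -2.43 (standard error 0.49, adjusted p = 1.1e-05) at 16 wkpp and -2.89 (standard error 0.43, adjusted p = 4.0e-10) for -4 wkpp over MNEB 1 wkpp. On whole genes the adjusted p of the same Wald test was 9.0e-05, 0.0043 and 1.6e-04 in these comparisons.

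**Figure D2:**
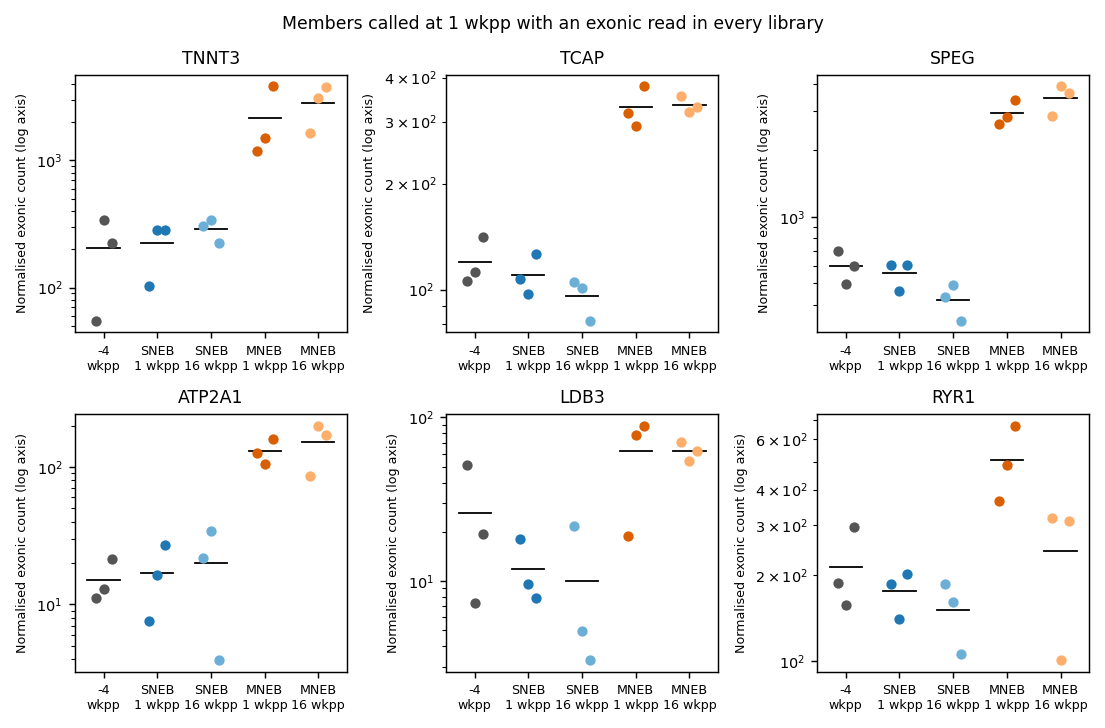
Normalised exonic count (log axis) of 6 called members in the 15 libraries, 3 points per group, with a line at the group mean. TNNT3, TCAP, SPEG and ATP2A1 have all MNEB libraries above all others. In LDB3 the first library of MNEB 1 wkpp (18.9) and in RYR1 the second library of MNEB 16 wkpp (101) lie as low as the other groups.

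These 4 genes, TNNT3, TCAP, SPEG and ATP2A1, were the members with all 6 MNEB libraries above all 9 others, out of 15 members with a mean exonic level of at least 10. Over all genes of that mean level the share was 9.71%. Since all 6 MNEB libraries lay above the others, leaving out the second and the third library of MNEB 1 wkpp could not turn the direction of these 4. Only the size could change, and it then rested on 1 MNEB library. The log2 ratios of the SNEB to the MNEB mean at 1 wkpp were -2.40 for TNNT3, -1.52 for TCAP, -2.23 for SPEG and -2.83 for ATP2A1. With all libraries they were -3.28, -1.57, -2.39 and -2.88, so the largest shift was in TNNT3. Scaling to the spike-ins turned the sign of these 4 log2 ratios, to between 0.29 and 1.84 at 1 wkpp and between 1.16 and 2.39 at 16 wkpp. It also moved the median of all genes to 3.44 and 4.18, and relative to that median the log2 values of TNNT3, TCAP, SPEG and ATP2A1 were -2.81, -1.60, -2.32 and -3.15 at 1 wkpp and -3.02, -1.79, -2.92 and -2.66 at 16 wkpp.

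In TNNT3 and ATP2A1 at both times, and in SPEG at 1 wkpp, the SNEB and MNEB libraries were apart on exons and overlapped outside them. Reads on the gene outside its exons gave SPEG a level of 589, 432 and 367 in SNEB 1 wkpp and 721, 413 and 254 in MNEB 1 wkpp, and the groups overlapped. At 16 wkpp this level was 347, 331 and 323 for SNEB against 1391, 942 and 647 for MNEB, without overlap, so at 16 wkpp SPEG differed outside exons too. For TNNT3 they were 253, 834 and 283 in SNEB 1 wkpp and 531, 72.0 and 148 in MNEB 1 wkpp, and 994, 864 and 557 in SNEB 16 wkpp and 841, 184 and 888 in MNEB 16 wkpp, with overlap at both times. For ATP2A1 they were 4.89, 16.9 and 3.62 in SNEB 1 wkpp and 13.8, 19.4 and 10.6 in MNEB 1 wkpp, and 20.3, 35.7 and 2.61 in SNEB 16 wkpp and 47.0, 17.0 and 23.1 in MNEB 16 wkpp, again with overlap. Exonic reads made up 82.9% of the reads of TNNT3 in MNEB 1 wkpp and 32.2% in SNEB 1 wkpp, and 83.2% and 54.0% of those of SPEG. The mean of MNEB over that of the 9 other libraries was 10.4 for the exonic and 0.770 for the other reads of TNNT3, 6.08 and 1.68 for SPEG, and 8.18 and 1.64 for ATP2A1. TCAP, a short gene, had 98.4% of its reads on exons, so the same split could not be read there.

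**Figure D3:**
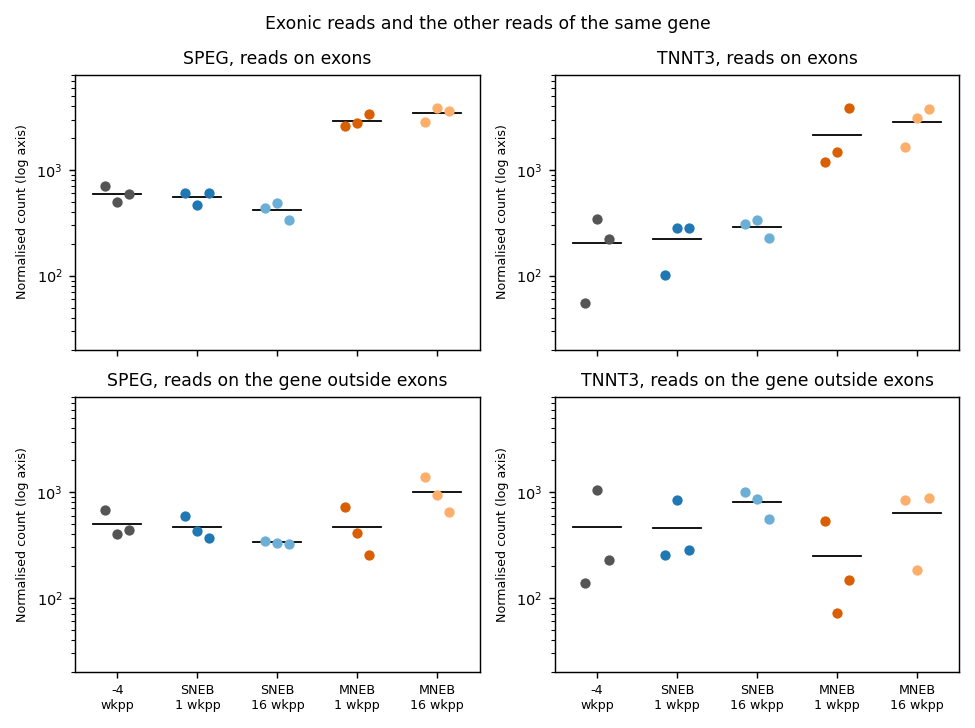
Normalised count (log axis) of SPEG and TNNT3 on exons (top) and on the gene outside its exons (bottom), 3 libraries per group with a line at the mean. On exons the MNEB libraries lie above the others, from 2622 in SPEG and 1181 in TNNT3. Outside exons MNEB 1 wkpp overlaps with SNEB 1 wkpp in both genes.

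LDB3 and RYR1 were called at 1 wkpp with less separation. LDB3, a PDZ and LIM domain protein of the Z-disc, had an exonic level of 18.0, 9.53 and 7.88 in SNEB 1 wkpp and 18.9, 78.0 and 89.2 in MNEB 1 wkpp, and of 21.6, 4.96 and 3.29 in SNEB 16 wkpp and 70.9, 54.5 and 62.0 in MNEB 16 wkpp. The first library of MNEB 1 wkpp was at the level of SNEB, whereas at 16 wkpp the groups were apart. The log2 fold change was -1.81 (standard error 0.54, adjusted p = 0.0069) at 1 wkpp and -2.12 (standard error 0.52, adjusted p = 3.6e-04) at 16 wkpp. Without the second and the third library of MNEB 1 wkpp, the log2 ratio of the means went from -2.30 to -0.64. RYR1, the calcium release channel of skeletal muscle, was at 187, 141 and 203 in SNEB 1 wkpp, 365, 489.7 and 671 in MNEB 1 wkpp, 186, 161 and 106 in SNEB 16 wkpp and 318, 101 and 309.8 in MNEB 16 wkpp. It was called at 1 wkpp (log2 fold change -1.42, standard error 0.31, adjusted p = 8.6e-05), and at 16 wkpp the groups overlapped. Without the second and the third library of MNEB 1 wkpp, its log2 ratio at 1 wkpp went from -1.51 to -1.04 on exons and from -1.67 to -0.66 on whole genes. The reads of RYR1 outside exons were at 410.0 and 484 in these libraries and at 40.3 in the first.

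The other 4 genes called at 1 wkpp, MYH2, MYBPC1, SMYD1 and DUSP27, rested on the second and the third library of MNEB 1 wkpp. MYH2 is a fast myosin heavy chain, MYBPC1 the slow skeletal myosin-binding protein C, SMYD1 a muscle methyltransferase needed to assemble myosin, and DUSP27 a catalytically inactive phosphatase of muscle. Counted over whole genes, MYBPC1 was at 3.80, 6.41 and 1.81 in SNEB 1 wkpp and 9.54, 482 and 618 in MNEB 1 wkpp. DUSP27 was at 0.543, 0.583 and 3.62 in SNEB 1 wkpp and at 14.8, 335 and 349 in MNEB 1 wkpp. In each gene the first library of MNEB 1 wkpp, the deepest of its group, was far below the other two. SMYD1 was at 1.09, 2.92 and 1.81 in SNEB 1 wkpp and 10.6, 163 and 286 in MNEB 1 wkpp, and MYH2 at 0.543, 0.583 and 0 in SNEB 1 wkpp and 2.12, 72.0 and 102 in MNEB 1 wkpp.

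The log2 fold changes of these 4 genes at 1 wkpp were between -2.12 (MYH2) and -2.87 (SMYD1) on exons and between -4.14 (MYH2) and -5.28 (DUSP27) on whole genes. On whole gene means without those 2 libraries, the log2 ratio went from -5.44 to -1.18 for MYH2, from -6.21 to -1.07 for MYBPC1, from -5.72 to -1.98 for SMYD1 and from -6.50 to -2.62 for DUSP27. These ratios rest on few reads, since 2, 21, 10 and 8 whole gene reads of MYH2, MYBPC1, SMYD1 and DUSP27 were counted over the 3 SNEB libraries. At 16 wkpp none of these 4 genes had an adjusted p-value in both analyses, so none could be called, and in each of them the first MNEB library (whole gene level 15.0 for MYH2, 101 for MYBPC1, 52.0 for SMYD1 and 52.0 for DUSP27) stood above the other two.

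The same libraries were high in many members, and in genes outside the list. In 31 of the 44 members both the second and the third library of MNEB 1 wkpp had a higher whole gene level than each of the 13 others, beside 22.5% of all 13348 genes with such reads. In 24 members they held more of the summed level than the 13 others together, beside 15.2% of all genes. In the 4 called genes the reads lay mostly outside exons, as exonic reads over all libraries were 8.97% of those of DUSP27, 5.63% of MYBPC1, 17.7% of SMYD1 and 24.7% of MYH2. Among the 24 members the exonic share was lowest in CSRP3 (5.38%), but ACTA1, XIRP1 (82.1%) and MYH7 (71.4%) had most of their reads on exons (these 4 named after their values were seen).

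The whole gene level was also summed over 1077 other genes with at most 1 whole gene read in each SNEB 1 wkpp library, chosen to be silent there. This sum was not split into reads on exons and reads outside them. It came to 32821 and 35983 in the second and the third library of MNEB 1 wkpp, and to 586 in the first. It was 12285 in the third library at -4 wkpp, 5916 in the first of MNEB 16 wkpp and 4228 in the first of SNEB 16 wkpp, against 319.7 and 1552 in the other libraries of MNEB 16 wkpp and 142 and 260.0 in those of SNEB 16 wkpp. The summed whole gene level of the 38 members with a mean exonic count below 100 in every table was highest in the same 4 libraries and in the same order, 4466 and 4094 in MNEB 1 wkpp, 1734 at -4 wkpp and 1403 in MNEB 16 wkpp. In the first library of SNEB 16 wkpp, the fifth by the sum over other genes, the members summed to 824, below the 976 and 1099.9 of the second and the third library of MNEB 16 wkpp. Reads outside exons can come from unspliced RNA or from DNA, which cannot be told apart here, so the whole gene levels of MYBPC1, DUSP27, SMYD1 and MYH2 are numbers of reads and may not be expression. The part of these reads in the 4 calls was not tested. Over all genes, exonic reads made up 53.9 and 55.1% of the gene reads in the second and the third library of MNEB 1 wkpp. In the 15 libraries this share was between 41.0 and 61.4%. In the libraries of MNEB 16 wkpp, where the sum over other genes was 5916, 319.7 and 1552, the exonic level of TNNT3 was 1654, 3075 and 3763. SPEG was at 2855, 3888 and 3612 there, TCAP at 354, 319 and 329, and ATP2A1 at 85.6, 200.0 and 172. How this sum and these levels go together was not tested.

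**Figure D4:**
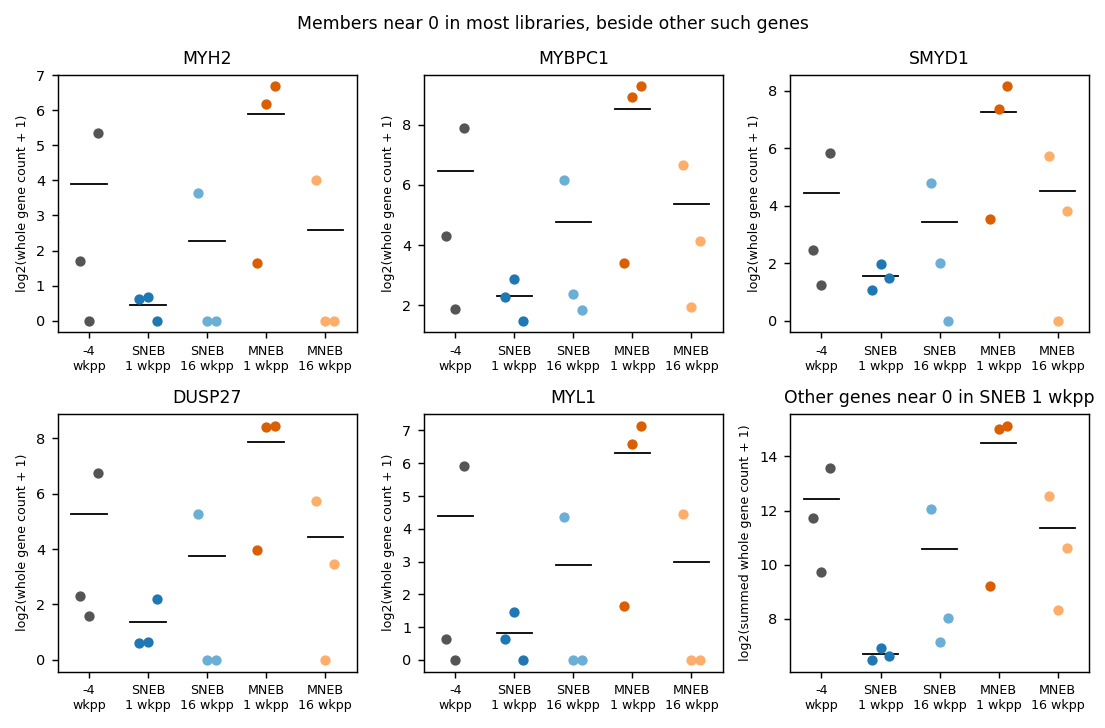
Whole gene level, as log2(normalised count + 1), of 5 members in the 15 libraries and, in the last panel, the sum over 1077 other genes chosen for at most 1 read in each SNEB 1 wkpp library. Lines mark the group means. In every panel the second and the third library of MNEB 1 wkpp are highest and the third at -4 wkpp comes next.

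The exon and the whole gene analysis gave different values for 6 of the called members at 1 wkpp. These log2 fold changes were shrunken towards 0 in each analysis, and the cause of the gaps was not tested. In TNNT3 and SPEG the exonic fold change was the larger, as the whole gene log2 values were -1.71 (standard error 0.50) and -1.73 (standard error 0.20). In MYH2, MYBPC1, SMYD1 and DUSP27 the whole gene value was the larger. On group means, which are not shrunken, the exonic log2 ratios of these genes were -3.98, -4.66, -4.63 and -4.21. On whole genes they were -5.44, -6.21, -5.72 and -6.50. TCAP, LDB3, RYR1 and ATP2A1 had values within 1 standard error of each other, with -1.53, -1.93, -1.59 and -2.36 on whole genes.

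**Figure D5:**
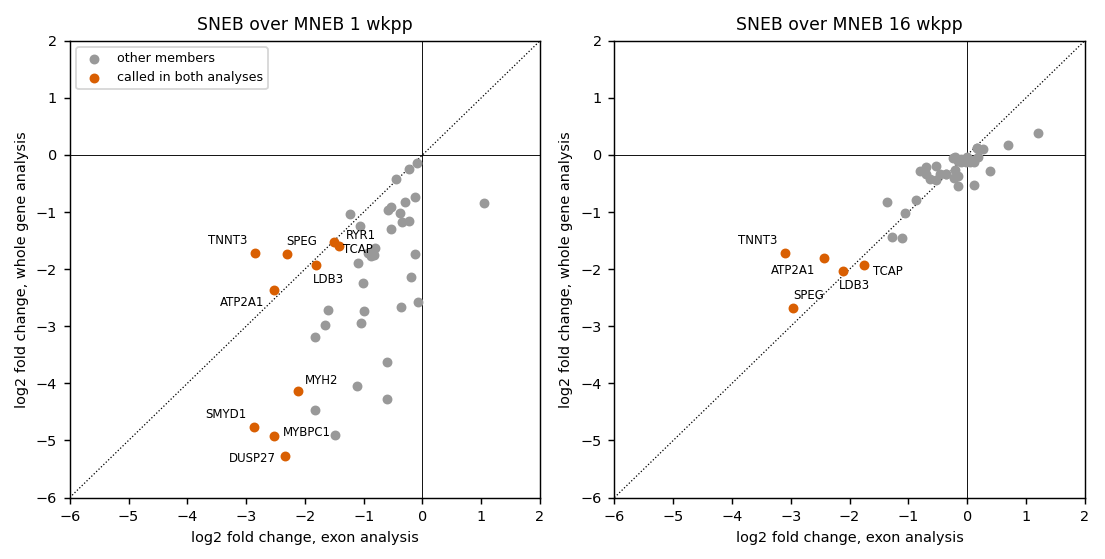
Log2 fold change of the members in the exon (horizontal) and the whole gene analysis (vertical) of SNEB over MNEB at 1 wkpp (left) and 16 wkpp (right). Each point is a member, members called in both analyses are coloured and named, and the dotted line marks equal values. At 1 wkpp MYH2, MYBPC1, SMYD1 and DUSP27 lie far below the line and TNNT3 and SPEG above it, and at 16 wkpp MYH2, MYBPC1, SMYD1 and DUSP27 had no adjusted p-value in both analyses.

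DES and FBXO32 were abundant but not called in any comparison. Desmin, DES, forms the intermediate filaments of skeletal, cardiac and smooth muscle. Its exonic level was 6458, 1181 and 1379 at -4 wkpp, 2137, 1225 and 1117 in SNEB 1 wkpp, 2261, 1279.6 and 422 in SNEB 16 wkpp, 2725, 1246 and 1370.1 in MNEB 1 wkpp, and 8581, 4501 and 1492 in MNEB 16 wkpp. The groups overlapped throughout, and the log2 fold change of SNEB over MNEB was -0.23 (standard error 0.35, adjusted p = 0.68) at 1 wkpp and -1.28 (standard error 0.61, adjusted p = 0.10) at 16 wkpp. Both comparisons with -4 wkpp had no p-value for DES in the deposited tables.

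The summed level of 12 smooth muscle genes was, like DES, highest in the first library at -4 wkpp and the first 2 of MNEB 16 wkpp, with 62233, 21352 and 19602 at -4 wkpp, 32614, 19064 and 21596 in SNEB 1 wkpp, 26769, 22994 and 12988 in SNEB 16 wkpp, 42388, 41808 and 38767 in MNEB 1 wkpp, and 89248, 63246 and 44098 in MNEB 16 wkpp. At both times this sum was higher in all MNEB libraries than in the SNEB libraries of that time, as were TNNT3, TCAP, SPEG and ATP2A1. The single genes did not all follow the sum at 1 wkpp. Their exonic log2 fold changes of SNEB over MNEB ran from -1.99 (SMTN) to 0.32 (TAGLN), with a median of -0.36. Values were above 0 in TAGLN, CNN1, KCNMB1, MYL9 and SYNPO2, and ACTA2 was at -0.03. At 16 wkpp the median was -1.25. Of the 12 genes tested at 1 wkpp, 1 (SMTN) was called lower in SNEB, beside 4.54% of all genes. Of the 11 tested at 16 wkpp, 7 were called lower in SNEB, MYH11 and TAGLN among them, beside 7.96% of all genes. The part of smooth muscle in the levels of SPEG, TCAP or the other members was not tested.

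FBXO32, or atrogin-1, is a ubiquitin ligase subunit that rises in muscle atrophy and is also made in other tissues. Its exonic level was 906, 221 and 319 at -4 wkpp, 629, 438 and 512 in SNEB 1 wkpp, 369.8, 396 and 313 in SNEB 16 wkpp, 763, 500.5 and 417 in MNEB 1 wkpp, and 705, 844 and 463 in MNEB 16 wkpp. At 16 wkpp the MNEB libraries of FBXO32 lay above those of SNEB, and the log2 fold change was -0.87 (standard error 0.25, adjusted p = 0.0035) on exons and -0.79 (standard error 0.28, adjusted p = 0.022) on whole genes, so it missed the threshold of 0.01 in the second analysis. At 1 wkpp it was -0.09 (standard error 0.30, adjusted p = 0.86).

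The remaining 32 members were not called, and each had a mean exonic count below 100 in every table. Of all 44 members, 29 lacked an exonic read in at least 1 library, and 6 (MYH1, MYBPC1, ACTC1, TNNI1, MYOT and CSRP3) had none in the 3 SNEB 1 wkpp libraries. MYH1 and MYH2 are close paralogs, as are the actin genes, so reads could be shared among them in ways that the deposited counting does not show.

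Of 60 other listed genes of striated muscle, 49 had a row, of which 4 were called lower and 1 higher in SNEB at 1 wkpp among 35 with an adjusted p-value, and 5 lower and 0 higher at 16 wkpp among 29. Over all genes, 4.54% were called lower and 2.89% higher in SNEB at 1 wkpp, and 7.96% lower and 4.72% higher at 16 wkpp. Those lower at 1 wkpp were MYH3, TPM1, HRC and CHRNA1, the higher one was FHL1, and those lower at 16 wkpp were MYH3, MYOM1, TPM2, HRC and PDLIM3. TPM1, a tropomyosin of muscle and non-muscle cells, was at 3930.1, 3009 and 5178 in SNEB and 9269.9, 15871 and 14197 in MNEB at 1 wkpp. For -4 wkpp over MNEB 1 wkpp, 4 of 30 genes of this list were called lower (MYH3, TPM1, DMD and CHRNA1) and 0 higher, beside 6.54% and 5.21% of all genes. Of 5 genes of cardiac muscle, the cardiac troponin T gene TNNT2 and the myosin light chain gene MYL4 were called lower in SNEB at both times. TNNT2 was at 77.9, 69.5 and 88.6 in SNEB and 193, 347 and 735 in MNEB at 1 wkpp, and at 82.2, 97.3 and 68.4 in SNEB and 305, 444 and 342 in MNEB at 16 wkpp, without overlap.

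Markers of other cells varied too, and not all in the same libraries. The 9 keratinocyte genes summed to between 0 and 102 in 13 libraries and to 129 and 392 in the second and the third of MNEB 1 wkpp. Of 6 tested at 1 wkpp, 2 (KRT5 and DSG1) were called lower in SNEB, beside 4.54% of all genes. Of 2 tested between -4 wkpp and SNEB 1 wkpp, 1 (DSG1) was called higher at -4 wkpp, where 2.33% of all genes were called in either direction. In MNEB 1 wkpp the 11 adipocyte genes summed to 95241 in the first library and to 37769 and 26425 in the second and the third. The sums were 96864 to 126816 in SNEB 1 wkpp and 95097 to 108740.3 at -4 wkpp. At 16 wkpp the sum was 68325, 55555 and 17840.1 in MNEB, all below the 76340.2, 71338 and 73152 in SNEB. Of the adipocyte genes, 2 of 8 tested (PLIN1 and CIDEC) were called higher in SNEB at 1 wkpp, beside 2.89% of all genes, and 1 of 9 (CIDEC) at 16 wkpp, beside 4.72%. At -4 wkpp 4 of 9 (LEP, CIDEC, CIDEA and GPAM) were called higher than in MNEB 1 wkpp, beside 5.21%. The 8 erythrocyte genes were between 14.9 and 368, the highest in the third library of MNEB 1 wkpp and the next, 304 and 298, at -4 wkpp. Of 1 tested at 16 wkpp, 1 (HBB) was called lower in SNEB, beside 7.96% of all genes. The 8 endothelial genes summed to 66939.7, 31561 and 46649 in MNEB 1 wkpp, which overlapped with 39832, 32145 and 39156 in SNEB 1 wkpp. Of 8 tested, 1 (TIE1) was called lower in SNEB at 1 wkpp, beside 4.54% of all genes, and 2 (VWF and TIE1) at 16 wkpp, beside 7.96%. The 7 genes of Schwann cells and nerve summed to 1665, 10153 and 1459 in MNEB 1 wkpp, where the second and the third library hold the highest and the lowest sum of all 15. Of 6 tested at 16 wkpp, 1 (SOX10) was called lower in SNEB, beside 7.96% of all genes. The part of these cells in the members' differences was not tested.

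Whether SNEB and MNEB cows differed in how the members moved between 1 and 16 wkpp was tested from the difference of both log2 fold changes and its standard error. The deposited log2 fold changes were shrunken in each table separately, which pulls the difference towards 0 in members with few reads, so this test cannot show that such members moved alike. In MYBPC1, for example, the exonic value of 1 over 16 wkpp in MNEB was 0.79 as deposited and 3.67 on group means. No member passed an adjusted p of 0.01 among 43 on exons (0 members, lowest adjusted p = 0.63) or among 36 on whole genes (0 members, lowest adjusted p = 0.087, for SPEG). At an unadjusted p below 0.05 there were 5 members on exons, with 4.94% of all genes, and 7 on whole genes, with 11.0% of all genes. For SPEG the whole gene log2 fold change of 1 over 16 wkpp was 0.39 in SNEB and -0.48 in MNEB, a difference of 0.87 (standard error 0.25). On exons the difference was 0.02 (standard error 0.43) for TNNT3 and 0.18 (standard error 0.32) for TCAP.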

How the data were processed

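Stranded total RNA libraries, depleted of ribosomal RNA and treated against DNA, were read from one end; the authors trimmed the reads with Cutadapt 1.3, aligned them with TopHat2 to bosTau8, counted them with htseq-count on exons and on whole genes and compared 3 libraries with 3 in DESeq2. The 6 deposited tables give, for 13896 genes and 92 spike-ins, the mean normalised count, a shrunken log2 fold change and its error (the authors' DESeq2 values) and the p-value and adjusted p-value of the authors' DESeq2 Wald test. These are comparisons made by the authors, and they were used because the members are defined by those tables; 0 columns belonged to other samples.

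Library reads were recovered from the means: genes with 1 read in 1 library gave the size factors, and a lattice reduction solved the 15 whole numbers from the 6 means. Solved without the last table, 99.9% of 13428 exonic entries and 99.8% of 13246 whole gene entries returned its means. Not recovered were 8 and 12 entries, no member among them, and 86 of 92 spike-ins were. The recovery, the Wald test of a difference and limma were tested on simulated data. limma 3.58.1 (trend) used log2(level + 1) of genes with a mean of at least 1 over the 6 libraries. The plan had expected no library values. Benjamini-Hochberg adjustment ran over all genes.

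The members and lists were chosen with earlier results of these data known. Members were named with values when called at least once or past an exonic mean of 100 in a table, and others only where said. Alternatives were exons or whole genes alone, a threshold of 0.05, higher mean counts, limma, group means, each library left out and, added after the data were seen, 2 scalings and 2 libraries left out together. Groups came from the labels. Depth is given with the results. Computations used Python 3.11.15, numpy, scipy and pandas.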

Additional observations from a re-analysis of the deposited data

Results flagged for a closer look

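The spike-in RNAs took a larger share of the exonic reads in every MNEB library than in the libraries at -4 wkpp, where the highest share was 1.37%. The shares were 2.79%, 11.9% and 19.1% in MNEB 1 wkpp and 3.38%, 9.35% and 7.72% in MNEB 16 wkpp, over the 86 spike-ins that could be recovered. In SNEB the highest share was 1.51%. Groups of 3 libraries were not searched for single outlying values.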

How the results depend on the processing

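No paired analysis was possible because the labels do not tie the libraries of different groups to a cow. In the 3 comparisons without a call, the count of called members was 0 under every alternative run. Between -4 wkpp and MNEB 1 wkpp, 3 calls became 5 on exons alone, 5 at an adjusted p below 0.05 and 1 with limma, and limma gave 0 to 1 with 1 library left out and 0 without the second and the third library of MNEB 1 wkpp. Between SNEB and MNEB at 1 wkpp, 10 became 16 on whole genes alone and 0 with limma. From that 0, limma gave 0 without these 2 libraries and 0 to 13 with 1 library left out, the 13 arising without the first library of MNEB 1 wkpp, where its calls over all genes went from 0 to 1052 of 12905. At 16 wkpp, 5 became 3 with limma, which gave 1 to 3 with 1 library left out (1 without either of the second and the third libraries of MNEB or of SNEB). The cause was not tested.

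Without the second and the third library of MNEB 1 wkpp, the median log2 ratio of group means moved by more than the spread of library medians in every comparison that uses them, from -1.28 to 0.56 for -4 wkpp and MNEB 1 wkpp, from 1.12 to -0.40 for MNEB 1 and 16 wkpp and from -1.76 to 0.00 for SNEB and MNEB at 1 wkpp. With 1 library left out it moved by less than that spread in all comparisons, although at 16 wkpp it went from -0.50 to between -0.82 and 0.01. With members at a mean of at least 100, the median at 16 wkpp went from -0.21 to -1.51. Scaling to spike-ins gave 1.44 for -4 wkpp and MNEB 1 wkpp, -0.89 for SNEB at 1 and 16 wkpp, 1.09 at 1 wkpp (a turned sign) and 2.45 at 16 wkpp for SNEB and MNEB, where the medians of all genes were 3.21, -0.79, 3.44 and 4.18.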
